A study of Homo sapiens with 6 samples.

Results

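The H3K4me3 regions described here are the ChIP-seq peaks called in HSC3 cells transfected with an siRNA targeting DLEU1 (siDLEU1) and in cells transfected with a control siRNA (siCONT). All H3K4me3 peaks on chromosomes 1 to 22 and X were taken, which gave 115525 of the 152902 regions in the peak lists of the series, 58582 in siCONT cells and 56943 in siDLEU1 cells. HSC3 is an established oral squamous cell carcinoma (OSCC) cell line, and DLEU1 is a long noncoding RNA (lncRNA) that the study set out to deplete. Cells of both groups came from the same line and, as far as the labels say, differed in the siRNA only. The DLEU1 siRNA was siDLEU1-2 per the study's methods, and cells were collected 72 h after transfection. Each siRNA has 1 H3K4me3 library and 1 H3K27ac library, so there are no replicates, no p-value is given, and every difference describes 1 library against 1 other.

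Trimethylation of lysine 4 of histone H3 is laid down at the transcription start sites (TSSs) of genes that are active or poised, mostly on the nucleosomes that flank the nucleosome-free start. SETD1 and MLL (KMT2) complexes write the mark, often at CpG islands, and KDM5 enzymes remove it. Interferon-stimulated genes carry it at their TSSs when they are in use, and many of them hold the interferon-stimulated response element (ISRE), a DNA motif bound by a complex that holds STAT2 and IRF9.

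The promoters of 4 interferon-stimulated genes whose H3K4me3 was lower in siDLEU1 cells are shown first, because they hold this motif. Being picked for it, they do not show how often the motif goes with a lower mark. Each runs from 250 bp before to 50 bp after the canonical TSS in GRCh37 (hg19), is read in the direction of transcription, and has every match to the core of the ISRE, taken as GAAA, any 2 bases and GAAA again on either strand, in capitals. They lie at chr1:79085883-79086182 on the plus strand (IFI44L), chr10:91152130-91152429 on the plus strand (IFIT1), chr1:27998654-27998953 on the minus strand (IFI6) and chr14:94576911-94577210 on the plus strand (IFI27).
IFI44L: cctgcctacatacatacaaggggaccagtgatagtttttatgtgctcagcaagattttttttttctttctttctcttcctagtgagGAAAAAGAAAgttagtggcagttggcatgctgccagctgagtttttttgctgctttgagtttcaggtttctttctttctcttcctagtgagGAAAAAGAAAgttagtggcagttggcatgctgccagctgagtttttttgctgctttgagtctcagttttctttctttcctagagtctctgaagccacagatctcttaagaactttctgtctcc
IFIT1: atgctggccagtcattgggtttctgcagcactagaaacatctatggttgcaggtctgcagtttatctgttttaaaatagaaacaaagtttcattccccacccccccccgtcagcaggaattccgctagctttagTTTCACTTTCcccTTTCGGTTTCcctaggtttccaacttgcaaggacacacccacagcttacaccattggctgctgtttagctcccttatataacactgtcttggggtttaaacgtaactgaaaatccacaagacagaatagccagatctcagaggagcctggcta
IFI6: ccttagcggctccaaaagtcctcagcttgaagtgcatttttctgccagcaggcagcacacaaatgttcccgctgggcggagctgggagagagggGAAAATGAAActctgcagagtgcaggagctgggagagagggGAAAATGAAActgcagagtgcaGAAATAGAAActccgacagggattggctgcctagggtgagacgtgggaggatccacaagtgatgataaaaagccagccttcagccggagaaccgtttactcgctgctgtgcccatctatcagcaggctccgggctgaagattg
IFI27: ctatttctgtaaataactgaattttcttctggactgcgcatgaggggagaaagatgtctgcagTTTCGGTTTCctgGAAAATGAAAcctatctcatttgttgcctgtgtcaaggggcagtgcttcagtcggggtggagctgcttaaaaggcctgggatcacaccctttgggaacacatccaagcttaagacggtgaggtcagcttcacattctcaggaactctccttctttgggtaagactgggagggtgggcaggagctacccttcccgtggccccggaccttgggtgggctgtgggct

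The promoters of THOP1 and TGM1, at chr19:2785251-2785550 on the plus strand and chr14:24732334-24732633 on the minus strand, are those of genes whose H3K4me3 was higher in siDLEU1 cells, and capitals mark the GC box GGGCGG on either strand. They hold 4 and 2 matches, and 55.7% of all 24020 promoters hold at least 1. A match describes the letters only.
THOP1: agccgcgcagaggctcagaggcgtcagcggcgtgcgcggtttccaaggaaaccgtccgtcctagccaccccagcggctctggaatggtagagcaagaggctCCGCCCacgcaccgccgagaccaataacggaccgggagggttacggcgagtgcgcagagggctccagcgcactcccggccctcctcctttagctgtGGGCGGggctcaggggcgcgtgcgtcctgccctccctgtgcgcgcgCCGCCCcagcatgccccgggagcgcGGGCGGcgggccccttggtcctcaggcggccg
TGM1: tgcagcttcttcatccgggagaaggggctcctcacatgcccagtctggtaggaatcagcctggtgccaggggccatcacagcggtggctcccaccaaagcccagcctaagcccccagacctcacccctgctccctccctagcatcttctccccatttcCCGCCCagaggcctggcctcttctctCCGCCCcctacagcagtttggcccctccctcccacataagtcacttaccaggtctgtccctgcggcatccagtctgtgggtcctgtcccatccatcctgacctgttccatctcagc
The last sequences are the 300 bases around the summits of the strongest regions away from TSSs that were found in 1 list only, at chr22:23800394-23800693 in siCONT cells and at chr7:17702519-17702818 in siDLEU1 cells, both read on the plus strand. Capitals mark CpG dinucleotides, of which these windows hold 4 and 3.
siCONT region: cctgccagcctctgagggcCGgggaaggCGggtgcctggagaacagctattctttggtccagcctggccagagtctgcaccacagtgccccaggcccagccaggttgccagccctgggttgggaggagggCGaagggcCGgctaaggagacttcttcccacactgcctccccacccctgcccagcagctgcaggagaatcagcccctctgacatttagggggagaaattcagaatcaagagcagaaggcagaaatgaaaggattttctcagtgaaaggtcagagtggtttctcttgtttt
siDLEU1 region: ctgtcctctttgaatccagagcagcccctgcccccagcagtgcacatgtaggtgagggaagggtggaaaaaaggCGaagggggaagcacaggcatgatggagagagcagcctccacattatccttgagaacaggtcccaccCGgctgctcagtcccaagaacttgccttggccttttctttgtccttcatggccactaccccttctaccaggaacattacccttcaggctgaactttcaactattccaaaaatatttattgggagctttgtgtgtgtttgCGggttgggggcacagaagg

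The sequencing depth was recovered from the lists, since the fold enrichment and p of a peak rest on the same whole number of fragments at its summit. On an assumed genome of 2.7 Gb it came to 28.4 M reads in siCONT cells and 22.3 M in siDLEU1 cells, with a median of 47 and 41 fragments at a summit. The fragment length used for this, 200 and 186 bp, was taken as the width of the narrowest region in each list and was not measured. Regions were ranked by fold enrichment within their own list, with 100 for the strongest (the percentile). Summit coverage is the number of fragments at the summit over the mean genome coverage of the library, and unlike the percentile it does not use the local background of the control. The cells' identity was checked at TSSs, where a gene counts as marked when a region lies within 1 kb. All 18 markers of squamous epithelium were marked in both lists, among them TP63, KRT5 and KRT14, against 2 of 10 markers of immune cells (CD14 and CSF1R), 2 of 9 matched markers of fibroblasts and endothelium (COL1A1 and VWF) and 1 of 10 of other tissues (PMEL).

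H3K4me3 at interferon-stimulated genes was lower in siDLEU1 cells. Of 17 interferon-responsive genes, which the study itself chose from expression in these cells and which are therefore not independent evidence of a direction, 16 were marked in siCONT cells and 13 in siDLEU1 cells. At the 13 genes marked in both, summit coverage was lower at 10, against 18.6% of all 13228 genes marked in both lists, and the rank by fragments was lower at all 13, against 45.1% of all genes. At IFI6 and IFITM1 the strongest regions of the lists did not overlap, so their values come from neighbouring sites. Of the other 11 genes, coverage was lower at 8 and the rank by fragments at all 11, against a lower coverage at 18.2% of the 11392 genes whose strongest regions overlapped. Over all 13 genes the median log2 ratio of coverage was -0.49 for the list and 0.32 for all genes, and the median log2 ratio of width was -0.83 against -0.09. In a population of cells, less mark in every cell and its loss in some cells cannot be told apart. By fold enrichment 4 genes fell by 20 percentile points or more and none rose, where 7.01% of all genes fell and 7.32% rose. The median change of the list was -4.77 points, and -13.9 points when the 3 genes with no siDLEU1 region were set to 0.

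OAS1, an enzyme that senses double-stranded RNA and activates RNase L, had 127 fragments at its summit in siCONT cells (exact 95% Poisson interval 106 to 151, for counting error only) and 30 in siDLEU1 cells (20.2 to 42.8). Such intervals take the summit as fixed, although it is the highest point of its region, and the counts are not scaled to depth. The summit coverage of OAS1, which is scaled, was 60.3 and 19.5. Its region, over exon 1 at chr12:113343948-113345905 in siCONT cells, shrank from 1958 to 805 bp. IFIT1, which binds foreign RNA that lacks a methylated cap, had 123 and 48 fragments, a coverage of 58.4 and 31.2, and percentiles of 93.0 and 64.7. IFI27 and IFI6, small interferon-induced membrane proteins, had a coverage of 75 and 31.9 and of 29.0 and 15.6 at their strongest regions by fold enrichment, those of IFI6 being the neighbouring sites chr1:27998355-27998704 and chr1:27998984-27999180. These 4 genes are the falls of the list, and OAS1 had the lowest coverage ratio of the 13. The local background of the control, in multiples of its genome mean, was 1.5 and 4.32 at IFI27 and 1 and 2.16 at IFI6, but 1 and 1.28 at OAS1 and 1.13 and 1.2 at IFIT1.

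MX2, OASL and XAF1 had a region in siCONT cells alone. MX2, an interferon-induced GTPase that restricts viruses, had 68 fragments there, a coverage of 32.3 and a region of 745 bp. OASL, a relative of OAS1, had 46 fragments, and XAF1, an interferon-induced factor of apoptosis, had 87. Among all genes marked in siCONT cells, 3.24% had no siDLEU1 region. MX2 stood at a percentile of 75.6, and 99.2% of the siCONT regions at TSSs in that decile of the list had a partner in siDLEU1 cells. OASL and XAF1 stood at 57.1 and 54.7, in a decile where 90.5% had one. The depth of the siDLEU1 library was 0.785 times that of siCONT, and its part in these losses was not tested.

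The other genes of the list stayed within 20 points. OAS2 had 183 and 77 fragments, HLA-F, an MHC class I protein, had 151 and 71, IFIT3 had 181 and 94, MX1 had 93 and 52, IRF9, the DNA-binding partner of STAT2, had 286 and 155, and IFITM1 had 239 and 154 at its neighbouring sites. At each of these 6 the summit coverage was lower in siDLEU1 cells. It was higher at IFITM3, an interferon-induced membrane protein that blocks viral entry, with 296 and 257 fragments, at ADAR, which edits double-stranded RNA, with 153 and 118, and at MT2A, a metallothionein, with 165 and 134. OAS2, IRF9 and IFITM3 stood higher in siDLEU1 cells by fold enrichment, by 3.82, 3.87 and 4.57 points, and lower by fragments. Their local background in the control was 5.64 in siCONT cells and 1.61, 2.16 and 4.32 in siDLEU1 cells. IRF4, a transcription factor of lymphocytes, was marked in neither list.

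Outside the list, IFI44L, an interferon-induced gene, showed the largest fall among the 3239 protein-coding genes with a single region pair at their TSSs. It had 98 fragments (79.6 to 119) in siCONT cells and 20 (12.2 to 30.9) in siDLEU1 cells, a coverage of 46.5 and 13.0, and percentiles of 88.2 and 1.71. Its region, over exon 1 at chr1:79084993-79087094 in siCONT cells, shrank from 2102 to 186 bp. RTP4, a further interferon-induced gene and a chaperone of receptors, had 101 and 31 fragments and a coverage of 47.9 and 20.2. Neither IFI44L nor RTP4 had an H3K27ac region in siDLEU1 cells, and both had one in siCONT cells.

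Genes that transmit the interferon signal were marked in both lists where they are given here. SOCS1, an inhibitor of the pathway, stood at percentiles of 87.3 and 68.4, and IFNGR2, a receptor chain, at 86.1 and 92.1. Neither fell or rose by 20 points, and their coverage was 45.1 and 44.2 and 57.4 and 65.7.

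The ISRE core was found in the promoters of 9 of the 17 interferon-responsive genes and in 820 of 24020 promoters of all genes (3.41%). It was absent from this window at MX1, MX2, OAS1, OASL, XAF1, IRF4, IRF9 and MT2A. Of the genes of the list that fell or had no siDLEU1 region, IFI27, IFIT1 and IFI6 held the ISRE core. OAS1, MX2, OASL and XAF1 did not. It was also held by OAS2, HLA-F, IFITM3, ADAR, IFIT3 and IFITM1, which stayed within 20 points. Among all genes that fell by 20 points or more the ISRE core was found in 4.55% of 924 promoters, and among those that rose in 2.17% of 967. The ETS motif CCGGAAG was found in 11% of the promoters of genes that fell, 20.3% of those that rose and 20.3% of those within 20 points, and in 12.6% of all promoters. For the GC box these shares were 68.6%, 67.7% and 73.1%, and 55.7% of all promoters, so it did not set apart the genes that rose.

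Over all genes marked in both lists, 7.01% fell and 7.32% rose by 20 points or more. In lists as small as the next ones, a count of none or 1 is near these shares. A gene near the top of the siCONT list could not rise by 20 points. No gene of the machinery of the mark itself fell or rose. All 16 genes of writers and erasers of H3K4 methylation were marked in both lists, with a median change of 0.718 points. RBBP5, a core subunit of the MLL complexes, stood at 95.6 and 75.9, with a local background of 1.5 and 4.32, KMT2B at 74.4 and 82.9, and SETD1B, at the top of both lists, differed least by fold enrichment. Of the 16 housekeeping genes all were marked in both lists and none fell or rose, with a median of -0.118. The squamous markers had a median of -1.90 points and 1 rise, KRT6A, a keratin of activated keratinocytes, at 48.3 and 84.0, with 77 and 99 fragments. TP63, the master regulator of squamous epithelium, stood at 92.7 and 78.7.

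Of 18 cell cycle genes 16 were marked in both lists, and the median was 1.49 points. Of these, 3 fell and 3 rose, where 7.01% and 7.32% of all genes did. Falls were BUB1, MKI67 and CDK1, and rises were MCM3, TOP2A and CCNB1. By fragments, of these 6 MKI67 alone changed by 20 points or more, with 48 and 25 fragments. TOP2A and MCM3 had 37 and 36 and 48 and 48 fragments, and their local background was 3.76 in siCONT cells and 1.61 in siDLEU1 cells. The TOP2A regions did not overlap between the lists, so its values come from neighbouring sites. Of 16 genes of mesenchymal cells and invasion, 10 were marked in siCONT cells and 9 in siDLEU1 cells. None of the 9 fell or rose, which is near the shares of all genes. MMP9 was marked in siCONT cells alone, by a weak region of 34 fragments. TWIST1, a factor of epithelial-mesenchymal transition, had 45 and 27 fragments, at percentiles of 57.5 and 37.8, and ZEB1 had 57 and 57. Of the immune markers, CSF1R rose from 26 to 85 fragments and CD14 had 140 and 64. COL1A1, a collagen of fibroblasts, fell by 23.5 percentile points by fold enrichment but had 72 and 63 fragments, a coverage of 34.2 and 41.0, and a local background of 1.88 and 4.32.

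The ranks of H3K4me3 in the 2 lists had a Spearman correlation of 0.756 over the 14495 region pairs at TSSs. Of 24135 genes, 13671 were marked in siCONT cells and 13609 in siDLEU1 cells, 13228 of them in both, and the median change over these was 0.550 points. Percentiles are taken within each list, so this median does not measure how close the lists were. By fold enrichment 927 genes fell by 20 points or more and 968 rose, of which 764 and 817 had strongest regions that overlapped between the lists. At the others different sites were compared. The local background of the control moved with these changes, with a median of 1.02 in siCONT cells and 2.16 in siDLEU1 cells at the genes that fell, and of 1.88 and 1 at those that rose. A single control fragment corresponds to 1.88 in siCONT cells and 2.16 in siDLEU1 cells. The part of such single fragments of the background in these falls and rises was not tested. By the number of fragments, which does not use that background, 338 of the 927 also fell by 20 points or more and 343 of the 968 also rose, which is 2.56% and 2.59% of the genes marked in both.

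The 338 genes had a median of 63.5 fragments in siCONT cells and 30 in siDLEU1 cells, and the median width of their strongest region was 677 and 362.5 bp. The 343 genes had 37 and 62 fragments and widths of 422 and 641 bp. H3K27ac, a mark of active promoters and enhancers that was measured in separate immunoprecipitates, ranked lower at most genes of the first group. The control depth recovered from the lists was the same for both marks, 7.18 M reads in siCONT cells and 6.73 M in siDLEU1 cells. The lists of both marks may therefore share a control and are not fully separate readouts. Of the 274 genes that fell and had an H3K27ac region in siCONT cells, 47 (17.2%) had none in siDLEU1 cells, and 202 of the other 227 (89.0%) ranked lower by H3K27ac fragments, with a median change of -12.6 points. Of the genes that rose, 11 of 277 (3.97%) had no H3K27ac region left and 141 of 266 (53.0%) ranked lower. At the remaining 12547 genes the shares were 2.30% and 68.6%. The median change by H3K27ac fragments was -0.695 points at the genes that rose and -3.67 points at the remaining genes. The remaining genes were stronger, with a median of 104 H3K4me3 fragments in siCONT cells, and the part of strength in these shares was not tested.

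Genes were also ordered by coverage ratio among those that fell or rose in both rankings, a rule chosen after their values were seen. The lowest ratio was that of IFI44L, followed by FOLR3, a secreted folate receptor, with 223 and 50 fragments and a strongest region of 4709 and 425 bp. OAS1, RTP4 and IFI27 were among the first 10, which also held LRP5, a Wnt co-receptor, with 168 and 44 fragments, SCPEP1, a carboxypeptidase, with 173 and 46, PTMS with 102 and 31, PGPEP1 with 74 and 24, and SIX2, a homeobox factor of developing kidney, with 81 and 27. The strongest summits of FOLR3, SCPEP1 and LRP5 did not lie at the same place in both lists but were shifted by -2533, -2374 and -1257 bp in siDLEU1 cells, where a negative value is upstream, so their values compare neighbouring sites. The FOLR3 regions overlap exon 6 of the gene, at an annotated TSS other than the canonical one.

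The highest ratio was that of TGM1, the transglutaminase that crosslinks the cornified envelope of the epidermis. It had 27 fragments in siCONT cells (17.8 to 39.3) and 186 in siDLEU1 cells (160.2 to 215), a coverage of 12.8 and 121, and regions of 291 and 3965 bp with a summit shift of -1049 bp, where a negative value is upstream. No H3K27ac region was called at TGM1 in either list. RNASE7, an antimicrobial ribonuclease of skin, had 29 and 79 fragments and a region of 568 and 1837 bp. THOP1, a cytosolic oligopeptidase, had 22 (13.8 to 33.3) and 66 (51.0 to 84.0), a coverage of 10.4 and 42.9, with a local background of 1 in both lists. ECSIT, a signalling adaptor that also assembles mitochondrial complex I, had 57 and 145 fragments. PSG4, CSF1R, PAX8, KIAA1755, SPTB and GREP1 completed the first 10, with coverage ratios between 3.28 and 5.77. The summits of GREP1, PSG4 and RNASE7 were shifted by 1949, 882 and 645 bp, so their values and those of TGM1 also compare neighbouring sites. The KIAA1755 region overlaps exon 13 of the gene, at an internal annotated TSS. Those of PAX8, SPTB, CSF1R, PSG4 and GREP1 also lay at annotated TSSs more than 1 kb from the canonical one.

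By the rank of fold enrichment and p together, the further large falls were PHF20, PROC, CEP295, TMEM169, SLC2A4 and the neighbours ZNF619 and ZNF620, which share 1 region. PHF20, a chromatin reader, had 91 and 39 fragments, with a local background of 1.09 and 4.32. PROC, the precursor of protein C, and CEP295, a centriole protein, had 56 and 42 and 68 and 56 fragments, with a local background of 1 in siCONT cells and 6.47 and 8.63 in siDLEU1 cells, and their coverage was not lower (26.6 and 27.3, and 32.3 and 36.4). The PROC region overlaps exon 6 of the gene, at an internal annotated TSS. The further large rises were AEN, PDHA1, FARP2, INTS15, IL7R, TRIM9 and LRPPRC. AEN, a nuclease induced by p53, had 43 and 73 fragments and a coverage of 20.4 and 47.5. INTS15, a subunit of the Integrator complex, went from a percentile of 0.580 to 64.0 by fold enrichment but had 59 and 44 fragments, a coverage of 28.0 and 28.6, and a local background of 7.52 and 1. IL7R, the receptor of interleukin 7, had 30 and 55 fragments and a region of 725 and 1624 bp.

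Genes marked in 1 list only were mostly weak. Of the 443 genes marked in siCONT cells alone, 421 had a region with no overlap in the other list, at a median percentile of 27.2, and 56 of these stood in the upper part of the list (percentile 50 or more). Of the 381 marked in siDLEU1 cells alone (2.8% of the genes marked there), 365 had no overlap, at a median percentile of 30.2, and 57 stood at 50 or more. Which list held more such genes turned with the threshold, since among regions whose −log10 q was 10 or more the counts were 502 for siCONT and 792 for siDLEU1. The strongest of the protein-coding genes among them was BMP7, a bone morphogenetic protein, with 142 fragments in siCONT cells and a region of 2099 bp inside the gene. In siDLEU1 cells it was NLRP10, a NOD-like receptor, with 85 fragments, followed by MGAT5B, a brain glycosyltransferase, with 77, and WDR54 with 65. The WDR54 region lay inside the gene, away from its canonical TSS. By percentile alone C1orf105, SMAD5-AS1, PLIN4 and NFIB-AS1, at 88.8 to 98.1, stood among the 5 first genes of siCONT cells, and PANDAR and LINC02178, at 90.1 and 88.4, led those of siDLEU1 cells. The regions of all 6 were overlapped by a region of the other list that lay outside the 1 kb window, so these genes did not lose or gain a region.

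At the annotated TSSs of DLEU1 itself, 3 regions were called in siCONT cells and 6 in siDLEU1 cells. The strongest of them was near the top of both lists, with 221 and 178 fragments, percentiles of 99.3 and 98.9 and a coverage of 105 and 116. This region, at an annotated TSS within the gene, spanned chr13:50759779-50761228 in siCONT cells and chr13:50759782-50761342 in siDLEU1 cells. It does not lie at the canonical TSS of DLEU1, chr13:50656307, for which no values are given here. The siRNA acts on the RNA, which these lists do not measure.

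At the authors' threshold the number of regions was lower in siDLEU1 cells at TSSs and level away from them. At TSSs, 22104 regions in siCONT cells stood against 20508 in siDLEU1 cells, a ratio of 0.928, and they covered 20.5 and 18.3 Mb. Away from TSSs the numbers were 36478 and 36435, a ratio of 0.999, made up of 21288 and 20250 regions in gene bodies and 15190 and 16185 between genes. Both ratios changed with the threshold. Among regions whose −log10 q was 10 or more the ratio was 0.995 (0.972 to 1.02) at TSSs and 1.12 away from them. Regions at TSSs had a median GC content of 57.5% and 59.2% and a CpG ratio (observed over expected) of 0.645 and 0.676, against 47.9% and 47.8%, and 0.216 and 0.217, away from them. An H3K27ac region of the same siRNA overlapped 73.8% and 67.4% of the regions at TSSs, and 8.48% and 4.71% of those away.

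Most regions had a partner in the other list. At TSSs 87.4% (95% Wilson interval 87.0% to 87.9%, for the counting of regions only) of the siCONT regions were overlapped by a siDLEU1 region, and 91.7% (91.3% to 92.1%) of the siDLEU1 regions by a siCONT region. Away from TSSs the shares were 69.7% and 71.5%. The overlap was higher for stronger regions in both classes. In siCONT cells it was 46.5% in the weakest decile of the list and 99.98% in the strongest at TSSs, and 43.5% and 99.9% away from them, while in siDLEU1 cells it was 68.4% and 100% at TSSs and 52.6% and 99.7% away. Regions with no partner were narrow, with medians of 304 and 279 bp at TSSs and 307 and 298 bp away.

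**Figure D1:**
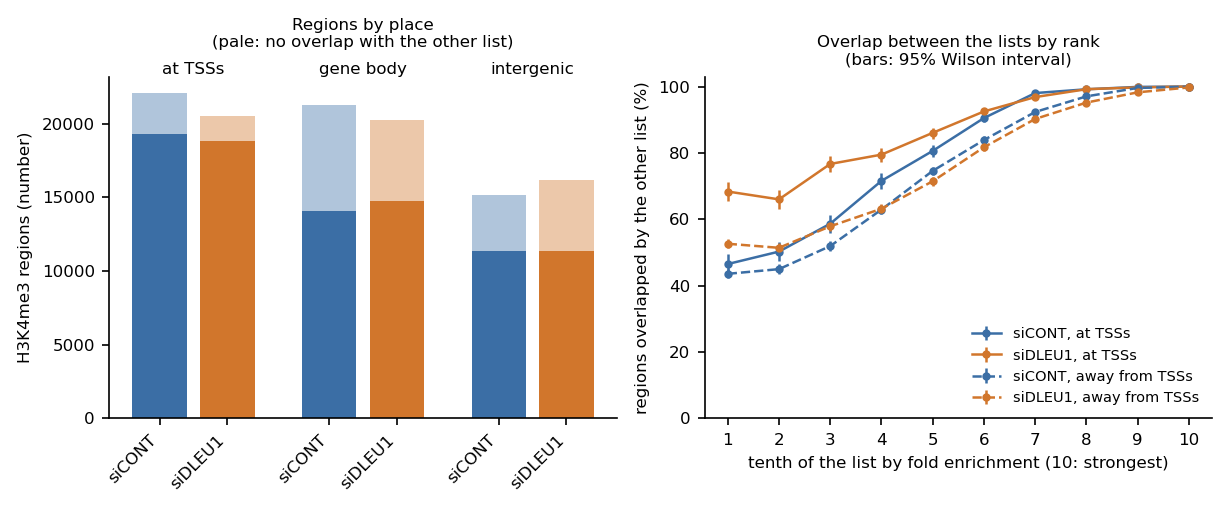
Left, number of H3K4me3 regions at TSSs, in gene bodies and between genes in each library, with regions that no region of the other list overlapped in pale colour. Right, percent of regions overlapped by the other list in each decile of the list by fold enrichment, with 95% Wilson intervals, solid at TSSs and dashed away from them. The lines start between 43.5% and 68.4% in the weakest decile and meet near 100% in the strongest.

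Regions were slightly narrower in siDLEU1 cells. Between the lists, 33006 regions formed pairs in which each overlapped the other alone, 14495 at TSSs and 18369 away from them. The median width at TSSs was 735 and 665 bp, with a median ratio of 0.927 (log2 ratio -0.11, quartiles -0.34 and 0.07), and 66.4% of the pairs were narrower. Away from TSSs it was 542 and 499 bp, with a ratio of 0.934, and 58.9% were narrower. The narrowing was seen in every width class at TSSs, with ratios between 0.921 for pairs of 300 to 500 bp and 0.962 for pairs over 3000 bp. Summit coverage went the other way, with a median ratio of 1.2 at TSSs, where it was higher in 73.8% of the pairs, and of 1.14 away. The fragment length taken from the narrowest region was 186 bp in the siDLEU1 list against 200 bp, and the siDLEU1 library was shallower. The part of both in the width was not tested.

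The largest narrowings among strong pairs (percentile 50 or more in both lists) were at IFT52, WDR11, APOBEC3H, FBXO21 and BBS1. APOBEC3H, an interferon-responsive cytidine deaminase that restricts retroviruses, shrank from 1559 to 574 bp, with 144 and 78 fragments. IFT52 and BBS1, of cilia, shrank from 1244 to 365 bp and from 1194 to 481 bp, and their summit coverage was higher in siDLEU1 cells, at 50.8 and 65.7 and at 35.1 and 55.9. The largest widenings were at OTUD3, a deubiquitinase, from 300 to 698 bp, at GYG1, which primes glycogen synthesis, from 647 to 1363 bp, and at PRTFDC1, ANTKMT and GPR85, where 536, 559 and 530 bp became 1126, 1159 and 1091 bp.

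The summit, where the most fragments pile up, stayed in place at most pairs. The median distance between the summits of a pair was 37 bp at TSSs and 48 bp away from them, and 85.9% (85.3% to 86.4%) and 84.5% (83.9% to 85.0%) lay within 150 bp, about the length of DNA on a nucleosome. At TSSs this share was 96.9% for pairs of 200 to 300 bp and 62.5% for pairs over 3000 bp. Shifts over 1 kb were seen at 0.414% and 0.250% of the pairs. The largest was at ZFP36L1, a factor of mRNA decay, where the summit was shifted by -3114 bp (negative is upstream) in siDLEU1 cells in a region of 8096 and 7385 bp. The shift was 2093 bp at the linker histone gene H1-2 and -1578 bp at SPESP1. Their percentiles were near the top at ZFP36L1 (99.9 in siDLEU1 cells), 90.7 and 86.6 at H1-2, and 98.5 and 98.2 at SPESP1. The SPESP1 region, at chr15:69109430-69113277 in siCONT cells, lies at another annotated TSS and not at the canonical one, chr15:69222864. Its values therefore do not describe the canonical SPESP1 promoter.

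**Figure D2:**
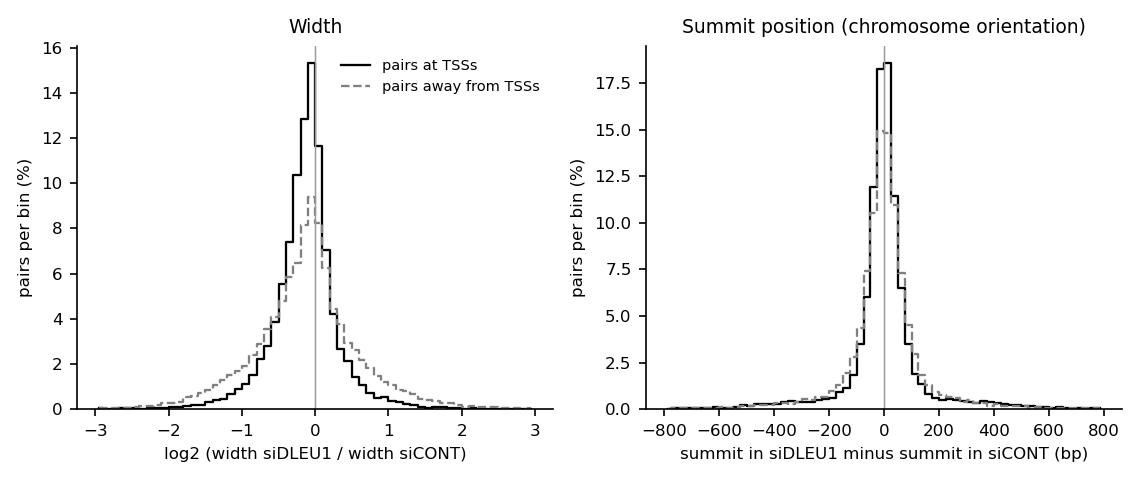
Distribution over pairs of the log2 ratio of width, siDLEU1 over siCONT (left), and of the distance in bp between the summits of a pair (right), solid at TSSs and dashed away from them. The width curves peak just left of 0, with medians of -0.11 and -0.10, and the summit curves are centred on 0.

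Along the direction of transcription, the regions drew in from downstream. At 11291 pairs at TSSs of 1 strand only, the upstream edge lay a median of 6 bp further in and the downstream edge 22 bp further in when siDLEU1 was set against siCONT, and the summit moved by a median of -4 bp. Shifts over 150 bp went upstream at 8.42% of the pairs and downstream at 5.59%. Around 16894 canonical TSSs with no start of the other strand within 5 kb, the share covered by a region was highest 240 bp downstream in siCONT cells (37.9%) and 200 bp downstream in siDLEU1 cells (38.9%). At 1 kb downstream it was 18.2% and 14%, at 1 kb upstream 8.14% and 6.93%, and at the TSS itself 24.3% and 27.9%. Summits avoided the start, with 9 and 14 in the 20 bp bin centred 30 bp upstream, and were most frequent 190 bp downstream in both lists. The share of summits within 1 kb that lay downstream was 60.4% and 63.3%.

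**Figure D3:**
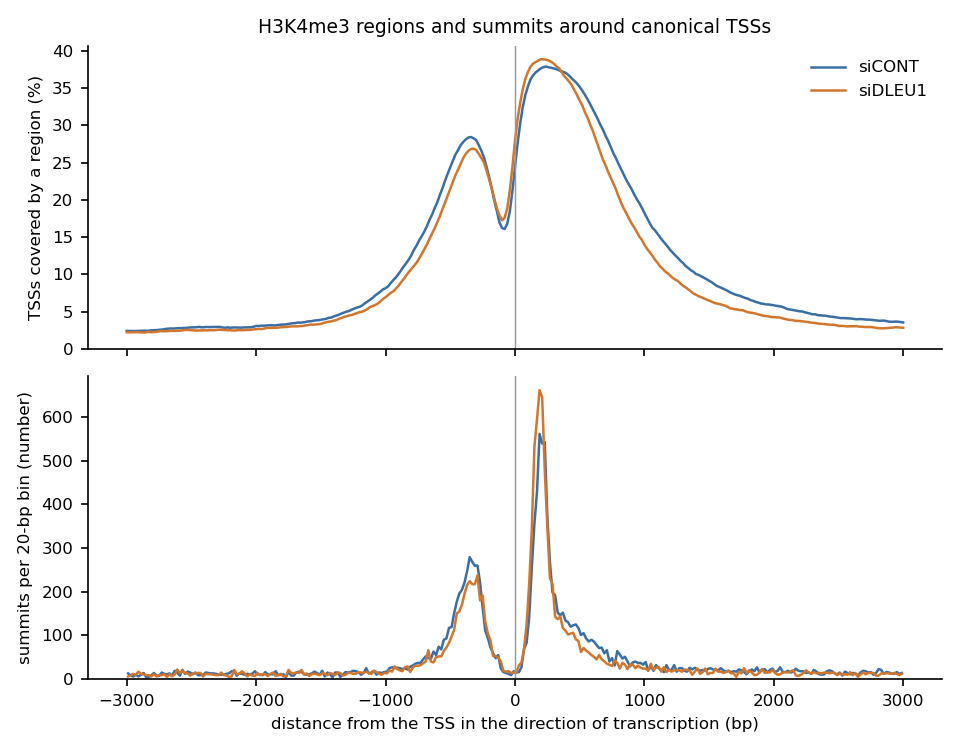
Percent of 16894 canonical TSSs covered by an H3K4me3 region (top) and number of summits per 20 bp bin (bottom) against the distance from the TSS in bp, blue for siCONT and orange for siDLEU1. Both lists show a gap just before the TSS and a summit peak 190 bp after it, and the orange curve runs below the blue one at 1 kb downstream (14% against 18.2%).

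Regions away from TSSs were fewer near genes and more numerous far from them and in AT-rich surroundings in siDLEU1 cells. Their number, siDLEU1 over siCONT, was 0.896 at 1 to 5 kb from the nearest TSS, 0.961 at 5 to 20 kb, 1.06 at 20 to 100 kb, 1.25 at 100 to 500 kb and 1.42 beyond 500 kb, where 89 and 126 regions were found. The share of siDLEU1 regions with a siCONT partner was 75.3% in the nearest class and 43.7% in the farthest. When the regions were split into 10 equal parts by the GC content of the surrounding 100 kb, the ratio was 1.17 in the part with the lowest GC and 0.911 in that with the highest, and the share of siDLEU1 regions with a partner was 61.5% and 78.3%. The share of siCONT regions with a partner was 71.5% and 69.8% in the same parts. At TSSs the ratio lay between 0.909 and 0.947 in all 10 parts. Over the 23 chromosomes the ratio away from TSSs ranged from 0.887 on chromosome 19 to 1.11 on chromosome 4, with a Spearman correlation with chromosome GC content of -0.69 (n = 23 chromosomes of the same 2 libraries). These splits were chosen after the data were seen, and a difference in base composition between the 2 libraries was not tested.

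**Figure D4:**
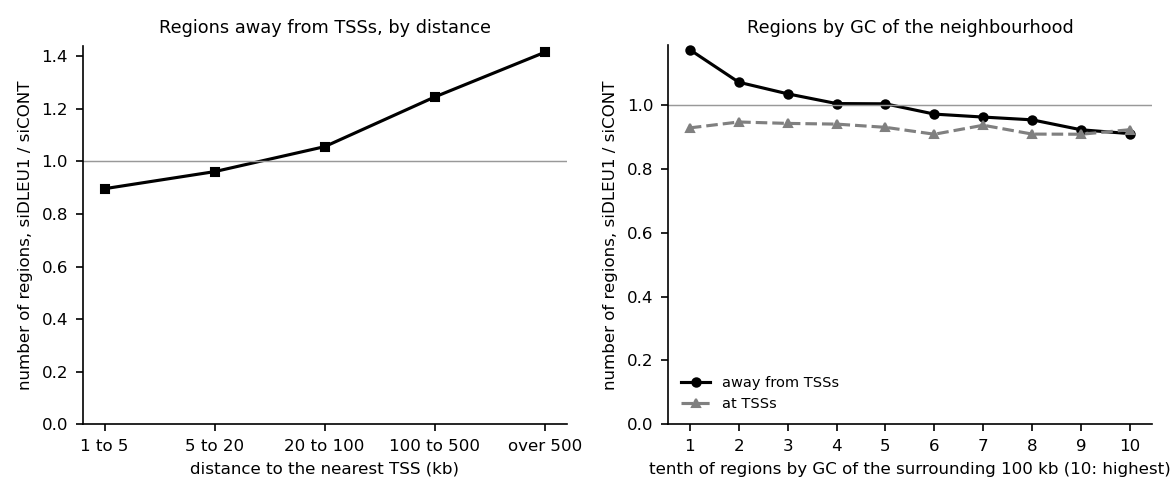
Number of regions in siDLEU1 cells over the number in siCONT cells, for regions away from TSSs by distance to the nearest TSS in kb (left) and for regions away from TSSs (black) and at TSSs (grey) by deciles of the GC content of the surrounding 100 kb (right). The ratio away from TSSs goes from 0.896 to 1.42 with distance, the last point resting on 89 and 126 regions, and from 1.17 to 0.911 with GC, while the grey line stays between 0.909 and 0.947.

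Over all pairs, changes of rank were more frequent away from TSSs. Of the pairs there, 3938 (21.4%) fell by 20 points or more and 3327 (18.1%) rose, against 1897 (13.1%) and 1611 (11.1%) at TSSs. Pairs away from TSSs were also weaker, with medians of 47 fragments in siCONT cells and 40 in siDLEU1 cells, against 75 and 65. Among strong pairs, as defined above, 8.64% fell away from TSSs and 4.93% at TSSs. The shares that rose were close, at 5.63% and 5.27%. The part of region strength in these differences was not tested. The largest fall was at chr2:220554629-220556957 inside LINC02832, with 128 and 31 fragments and widths of 2329 and 405 bp, followed by regions inside GMDS on chromosome 6, with 109 and 27 fragments, and inside ANXA2R-OT1 on chromosome 5, with 143 and 53. Their local background in siDLEU1 cells was 4.32, 4.32 and 8.63. The largest rises were a region inside LASP1, which encodes an actin-binding protein, with 36 and 93 fragments, and intergenic regions near LGSN, with 23 and 105, and DCBLD1, with 18 and 72.

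The strongest regions away from TSSs without a partner stood at percentiles between 87.1 and 95.5. In siCONT cells, neighbouring regions at chr22:23800107-23801220 and chr22:23801325-23802402, 24.2 and 25.3 kb from LINC01659, had 137 and 117 fragments, and a region 3.22 kb from the VDAC2 TSS, inside that gene, had 99. In siDLEU1 cells, chr7:17701732-17702935 had 118 fragments, chr11:19008508-19009470 had 105, and chr6:90660110-90660906, inside BACH2, had 104. None of these 6 overlapped an H3K27ac region of the same siRNA.

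Regions away from TSSs were also counted in bins of 1 Mb, which were chosen after the data were seen. Regions at TSSs and bins on chromosome 8 were left out. The largest gain was on chromosome 12 in the bin that starts at 76000001, with 21 regions in siCONT cells and 57 in siDLEU1 cells, a bin that holds PHLDA1 and NAP1L1. The bin of TP63 on chromosome 3 went from 81 to 102, and that of TENM2 on chromosome 5 from 49 to 74. The largest loss was on chromosome 20 in the bin of CYP24A1 and ZNF217, with 81 and 52 regions. The next were the bin on chromosome 17 that starts at 56000001, with 38 and 14, and that on chromosome 19 that starts at 33000001, with 43 and 19. The bin of EGFR on chromosome 7, with 87 and 63, lost as many. All these bins are extremes picked from all the bins counted.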

How the data were processed

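H3K4me3 and H3K27ac ChIP-seq libraries of siCONT and siDLEU1 HSC3 cells, 1 of each, were sequenced on an Ion Proton, and per the study's methods reads were aligned to hg19 with bowtie2 and peaks called with MACS2. The series also holds 1 Input library for each siRNA. MACS2 settings, and whether these Input libraries served as the control, are not given in the sources used here. The deposited peak lists give position, summit offset and score, the fold enrichment as a ratio over the local background, and p-values and q-values as −log10, made by the authors per library, with a largest q of 0.0461 and 0.0470. The authors' lists hold no read counts.

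From these files, regions on chromosomes 1 to 22 and X were kept (130 and 150 were left out). Whole fragments at each summit were recovered from fold enrichment and p, within 0.02 of a whole number at 100% of the regions. TSSs were those of 24135 genes in GENCODE 44 lifted to GRCh37, and a region within 1 kb of one was at a TSS. Regions of both lists that overlapped 1:1 by at least 1 bp formed pairs, and a change of 20 percentile points counted as a fall or rise. Wilson and Poisson intervals are at 95% and cover counting error only. The Poisson intervals take the summit as fixed and are for counts not scaled to depth, so those of the 2 lists cannot be compared directly. With 1 library a side no test was run. Python 3.11.15, numpy 2.4.6, pandas 2.3.3, scipy 1.17.1 and matplotlib 3.10.9 were used, and the steps were tested on simulated data.

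Named genes were protein-coding genes with 1 region pair at their TSSs and the 10 largest falls and rises by the smaller of the changes in rank of fold enrichment and −log10 p, the 5 strongest genes of each list alone, the 5 largest narrowings and widenings and the 3 largest summit shifts at a percentile of 50 or more in both lists, the 3 strongest regions away from TSSs of each list alone and the 3 largest falls and rises there, all interferon-responsive genes, DLEU1, and from other lists the largest fall, the largest rise and the smallest change. Genes on chromosome 8 were counted, not named. Counts over the list of interferon signalling genes are not reported here. The members and gene lists were chosen with earlier results of these data known. Summit coverage, the use of both rankings, the counts over overlapping strongest regions, the order by coverage, the splits by distance, GC content and 1 Mb bins, the promoter motifs and the count of genes without overlap were chosen after the data were seen, as were further list members named in the text. The planned share of repeats was not computed, because the genome sequence used here does not mark repeats. Alternatives were regions with a −log10 q of 10 or more, equal numbers of regions, a 3 kb window, an overlap of 50%, protein-coding genes only, and ranks by −log10 p and by fragments.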

Additional observations from a re-analysis of the deposited data

How the results depend on the processing

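No paired analysis was possible because each siRNA has 1 library. Among regions whose −log10 q was 10 or more the number ratio was 0.995 at TSSs and turned to 1.12 away from them, the overlapped shares of siCONT and siDLEU1 regions were 90.6% and 87.8% at TSSs and 74.1% and 67.2% away, the log2 width ratio at TSSs was -0.10, 84.7% of summits lay within 150 bp, 502 genes had a siCONT region alone and 792 a siDLEU1 region alone, 1385 fell and 2214 rose. With equal numbers of regions the ratio away from TSSs turned to 1.04, and the shares were 88.03% for siCONT regions at TSSs and 70.9% and 70.5% away. With a window of 3 kb that ratio turned to 1.02, and the shares were 82.5% and 88.9% at TSSs and 71% and 70.9% away. When both regions had to share 50% of their length they were 70.5% and 75.8% at TSSs and 46.9% and 47.0% away, the log2 width ratios -0.092 and -0.077, and 84.3% of summits at TSSs lay within 150 bp. Ranked by fragments 479 genes fell and 504 rose, by both rankings 338 and 343, and where the strongest regions overlapped 764 and 817, both of the latter chosen after the data were seen. The change turned by fragments at INTS15 (-7.03), IFT52 (2.30), PRTFDC1 (-3.05), OAS2 (-19.3), IRF9 (-2.87) and IFITM3 (-0.040), and by −log10 p at OAS2 (-10.4) and IRF9 (-2.95). The causes were not tested. Weak regions limit the comparison, since the siDLEU1 library was shallower, and no replicate gives the spread of any value.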
